A study of Homo sapiens with 6 samples.

Results

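The 10 genes described here encode S100 proteins: S100A2, S100A4, S100A6, S100A7, S100A8, S100A9, S100A10, S100A11, S100A14 and S100P. They were taken as the probe sets whose annotated gene symbol is one of these names, which gave 13 probe sets of the 54613 tested and 10 genes of 19775 in all. None of the 13 probe sets lists another gene. Each gene was read at its brightest probe set, the one with the highest mean over all 6 arrays, and S100A6, S100A8 and S100A10 each had a second one.

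RNA came from MCF10A, an established line of human breast epithelium that does not form tumours. Cells received by transfection either a mimic for miR-221 and miR-222 (the mimic group) or a control microRNA (the control group), with 3 biological replicates each by the labels and 1 single-colour array for each replicate. Both groups are the same line and both were transfected, so they differ by the microRNA given. Its dose, the harvest time and the sequence of the control were not stated in the labels. Across probe sets, arrays of one group correlated with r from 0.995 to 0.998 and arrays of different groups with r from 0.982 to 0.986, and probe sets are not independent replicates. Values are log2 intensities and differences are mimic minus control on that scale. The number of arrays limits the precision, and a whole-culture value cannot tell fewer expressing cells from less RNA per cell.

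S100 proteins are small calcium sensors that work as dimers and carry a pair of calcium-binding loops of the EF-hand type. In epithelia they serve both inside the cell, on annexins, cytoskeleton and transcription factors, and outside it, as antimicrobial proteins and alarm signals read by the receptors AGER and TLR4. Most of their genes lie side by side with the genes of the cornified envelope, and several are known for their levels in breast tumours and inflamed skin.

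The microRNAs given to the cells are shown for what they share, with the seed, bases 2 to 8, in capitals. The sequences are RefSeq's on GRCh38.p14, and the labels do not say which arm of each hairpin the mimic holds.
hsa-miR-221-3p, chrX:45746180-45746202, minus strand: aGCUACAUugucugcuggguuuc
hsa-miR-222-3p, chrX:45747036-45747056, minus strand: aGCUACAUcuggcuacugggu

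Of the 10 genes, 6 fell, 1 rose and 3 did not pass the threshold, an adjusted p under 0.05 in limma with Benjamini-Hochberg adjustment over all probe sets. Over all 19775 genes 16.3% fell, 14.1% rose and 30.4% changed in either direction. S100A8 and S100A9, the subunits of calprotectin, fell most, followed by S100A14, S100A4, S100A7 and S100A2. S100A6 rose by a small amount, and S100A10, S100A11 and S100P had differences from 0.04 to 0.12. Of the 6 that fell, 4 were at least 2-fold lower, a size of fall seen in 2.09% of all genes. The arrays of the groups did not overlap for 8 of the 10 genes, with mimic below control for 6 and above for 2. Among all genes the groups did not overlap for 45.6%, with mimic below for 21.9% and above for 23.7%. Counted by probe set, 7 of the 13 fell and 3 rose, where 24.8% of all probe sets changed in either direction. The median difference of the 10 genes was -0.52, and that of all genes 0.03.

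**Figure D1:**
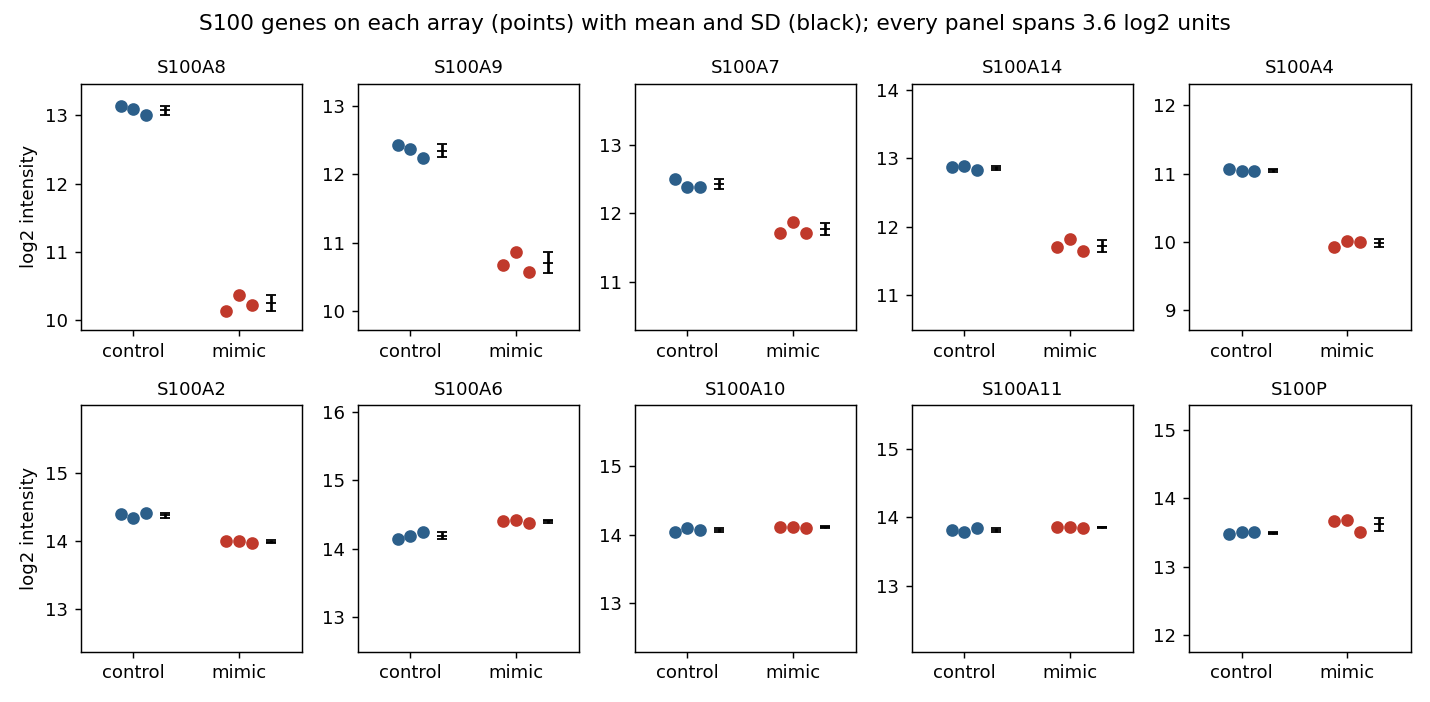
Log2 intensity (vertical axis) of the 10 S100 genes on the 3 control arrays (blue) and the 3 mimic arrays (red), with mean and SD in black; every panel covers the same span of log2 units around its own centre. S100A8 and S100A9 show the widest gaps between groups, and for S100A10 and S100A11 the groups overlap.

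S100A8 encodes the smaller subunit of calprotectin, a complex that withholds zinc and manganese from microbes and acts as an alarm signal. It read 13.13, 13.08 and 13.01 on the control arrays and 10.14, 10.38 and 10.23 on the mimic arrays. Every mimic array lay far below every control array. The means were 10.25 ± 0.12 against 13.07 ± 0.06 (SD, n = 3 each), and intensity was 7.07-fold higher in the control (difference -2.82 ± 0.07, SE; limma adjusted p = 1.4e-09). Among the 19775 genes its difference ranked 18, counted from the most negative. The probe set read here has the suffix s_at, given to probe sets that can bind more than 1 transcript. The second S100A8 probe set, which is dimmer, fell by 1.56 on the log2 scale ± 0.11 (SE; limma adjusted p = 1.26e-06). It read 7.78, 7.51 and 7.52 in the control and 6.01, 5.85 and 6.27 in the mimic, so the direction held at both probe sets and the size did not.

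S100A9 encodes the partner subunit of calprotectin. It read 12.42, 12.37 and 12.24 on the control arrays and 10.68, 10.87 and 10.56 on the mimic arrays, again without overlap. Intensity was 3.12-fold higher in the control (difference -1.64 ± 0.09, SE; limma adjusted p = 1.49e-07). The difference of S100A8 was more negative than that of S100A9 by 1.18 on the log2 scale at the brightest probe sets. Taken array by array, the S100A8 value minus the S100A9 value lay from -1.26 to -1.06 in the mimic arrays and from -0.02 to 0.04 in the control arrays, after setting the control mean to 0. The groups did not overlap, and the exact two-sided permutation p was 0.10, the smallest that 3 arrays against 3 can give (0.10 after adjustment over the 2 partner pairs tested). At its second probe set S100A8 fell by 1.56, and S100A9 fell by 1.64, so the size of the gap varied with the S100A8 probe set read. That second probe set averaged 6.04 in the mimic, below the lower quartiles of the mimic arrays (6.47 to 6.51). Differences between values this dim can be compressed, and whether this one was compressed was not tested.

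S100A7, or psoriasin, is a secreted antimicrobial protein of skin and breast epithelium. It read 12.51, 12.38 and 12.38 in the control and 11.71, 11.87 and 11.72 in the mimic. All mimic arrays were lower, and intensity was 1.57-fold higher in the control (difference -0.65 ± 0.07, SE; limma adjusted p = 3.86e-05). S100A7A, its close relative, had a difference of -0.18 ± 0.09 (SE) and did not pass (limma adjusted p = 0.186); its groups overlapped at 8.07 ± 0.01 in the control and 7.88 ± 0.20 in the mimic (SD, n = 3 each). S100A7A passed without mimic replicate 1, with a difference of -0.30, and with array weights, with -0.27. Whether the differences of the pair differ was not tested, and probes for genes this alike may bind both.

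S100A14 and S100A4 fell by similar amounts. S100A14, a protein of epithelial cells that acts on growth and migration, read 12.86, 12.89 and 12.83 in the control and 11.70, 11.81 and 11.65 in the mimic. That is 2.21-fold higher in the control (difference -1.14 ± 0.07, SE; limma adjusted p = 2.98e-07). S100A4, which binds non-muscle myosin and is known for cell motility and metastasis, read 11.06, 11.03 and 11.05 in the control and 9.92, 10.02 and 10.01 in the mimic. It was 2.09-fold higher in the control (difference -1.06 ± 0.06, SE; limma adjusted p = 2.82e-07), at a probe set with the suffix s_at. For both genes the gap between groups was many times the spread within either group.

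S100A2, an epithelial protein of the nucleus, fell by 0.39 on the log2 scale ± 0.06 (SE; limma adjusted p = 0.000486). It read 14.39, 14.34 and 14.40 in the control and 13.998, 13.9998 and 13.965 in the mimic, so the groups stayed apart although the fold was only 1.31.

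S100A6, or calcyclin, binds the ubiquitin ligase adaptor CACYBP. It read 14.14, 14.19 and 14.24 in the control and 14.41, 14.42 and 14.37 in the mimic, and rose by 0.21 ± 0.06 (SE; limma adjusted p = 0.0269). Its second probe set rose by 0.31 ± 0.09 (SE; limma adjusted p = 0.0269). The mimic arrays were higher at both, 1.15-fold at the brighter and 1.24-fold at the dimmer. The call at the brightest probe set was lost without mimic replicate 2 (limma adjusted p = 0.103), without control replicate 1 (0.115) and without control replicate 2 (0.0727). It was also lost with arrays centred on their medians (0.0570) and with the replicate number as a block (0.0529).

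S100A10 binds annexin A2 and, unlike its relatives, does not bind calcium. It read 14.04, 14.10 and 14.07 in the control and 14.12, 14.11 and 14.10 in the mimic. The groups overlapped and the difference of 0.04 ± 0.06 (SE) did not pass (limma adjusted p = 0.655). Its second, dimmer probe set rose by 0.34 ± 0.08 (SE; limma adjusted p = 0.0111), from 8.39, 8.49 and 8.43 in the control to 8.59, 8.86 and 8.88 in the mimic, without overlap. With both probe sets averaged the gene passed, with a difference of 0.19 (limma adjusted p = 0.0222).

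ANXA2, which encodes the annexin that holds S100A10 at the membrane, had a difference of -0.08 ± 0.06 (SE) and did not pass (limma adjusted p = 0.375). The S100A10 value minus the ANXA2 value was higher by 0.12 in the mimic arrays, and the exact two-sided permutation p was again the smallest possible, 0.10 (0.10 adjusted over the 2 pairs). The ANXA2 probe set has the suffix x_at, as have 2 of the other 3.

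S100A11, which binds annexin A1 and is built into the cornified envelope, read 13.81, 13.78 and 13.85 in the control and 13.86, 13.86 and 13.85 in the mimic. The groups overlapped, and the difference was 0.04 ± 0.06 (SE; limma adjusted p = 0.692). S100P, which binds the cytoskeletal linker ezrin, read 13.48, 13.51 and 13.51 in the control and 13.67, 13.69 and 13.51 in the mimic. Its mimic arrays were all higher, the lowest of them by less than 0.01, and the difference of 0.12 ± 0.07 (SE) did not pass (limma adjusted p = 0.221).

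**Figure D2:**
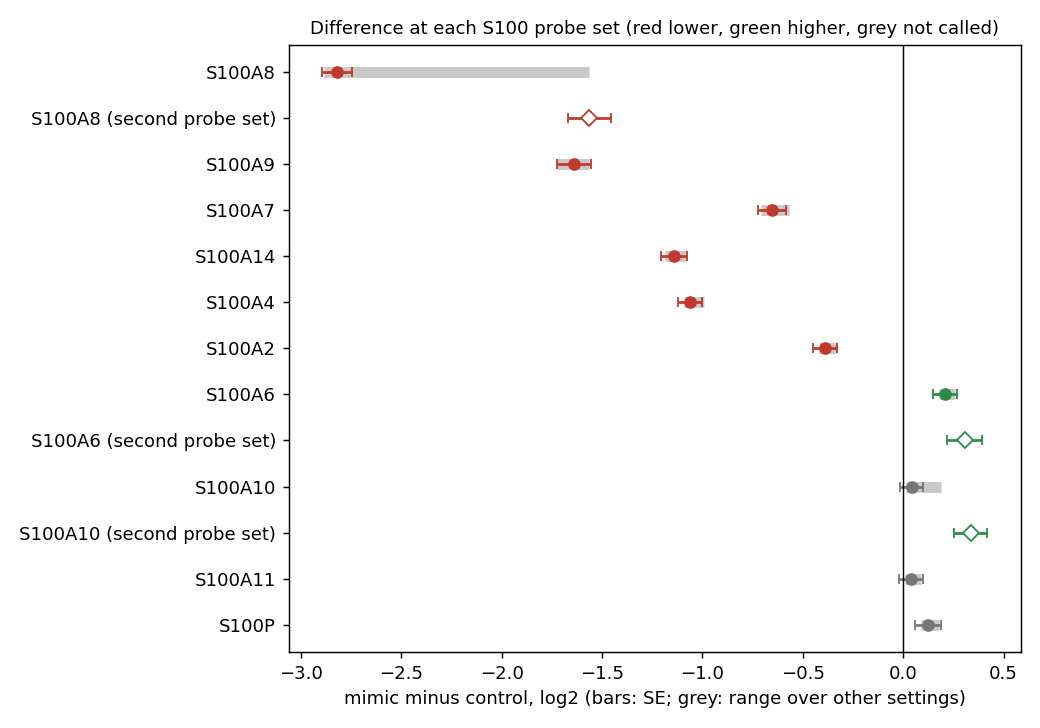
Difference between mimic and control (horizontal axis, log2) at the 13 probe sets of the S100 genes; bars are limma's SE, open diamonds are second probe sets, and grey bands are the range over the other settings tried. S100A8 spans from -2.88 to -1.56 over those settings, and S100A2, S100A4, S100A7, S100A9 and S100A14 stay below 0 under each of them.

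Among the 10 genes, those with small or no change were the brightest. S100A2, S100A6, S100A10, S100A11 and S100P averaged from 13.56 to 14.30 over all arrays, above 99.4% of probe sets for the dimmest of them, and the array maxima lay from 14.90 to 14.95. The 5 genes that fell by more than 0.6 averaged from 10.52 for S100A4 to 12.29 for S100A14. Outside the 10, S100A16 and SLPI also lay above 99.4% of probe sets, and they fell by 0.91 and 0.51. ANXA2, CAPN2 and CEBPB were this bright too and did not pass. Levels of different probe sets are not comparable as RNA amounts, and whether brightness near the top of the scale narrowed the differences of the bright genes was not tested. Within the mimic group, replicate 2 was the highest of the 3 arrays for 8 of the 10 genes and replicate 3 the lowest for 7. In the control group no array was highest for more than 4 genes. This order was counted for the 10 genes only, and whether it holds over all genes was not tested.

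The stretches just before the transcription start are shown for the calprotectin genes, which fell most, and for S100A10 and S100A11, which did not pass, because they differ in a core promoter element. Each is 60 bases long and ends at the base before the start, from RefSeq's windows on GRCh38.p14; the letters TATAA, the core of the TATA box, are in capitals. S100A8 has 3 windows, and the one holding TATAA is given.
S100A8, chr1:153391074-153391133, minus strand: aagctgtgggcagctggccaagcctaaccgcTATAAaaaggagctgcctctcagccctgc
S100A9, chr1:153357794-153357853, plus strand: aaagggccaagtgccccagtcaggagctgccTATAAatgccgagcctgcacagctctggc
S100A10, chr1:151993860-151993919, minus strand: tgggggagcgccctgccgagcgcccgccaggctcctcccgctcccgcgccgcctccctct
S100A11, chr1:152037005-152037064, minus strand: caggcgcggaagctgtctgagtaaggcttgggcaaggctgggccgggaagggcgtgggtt

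TATAA on the transcript strand lay in such a stretch for 7 of the 10 genes, against 6.45% of the 27305 genes with a window. The 7 were S100A4, S100A6, S100A7, S100A8, S100A9, S100A14 and S100P. They include 5 of the 6 genes that fell, and also S100A6 and S100P. S100A2, which fell, had none. TATAA lay also in 5 of the 9 other S100 genes with a window, S100A7A, S100A12, S100A13, S100G and S100Z, none of which passed in the main setting. The letters TGANTCA, bound by AP-1, were found on either strand in the 250 bases before the start of 1 gene, S100A2, against 8.06% of all genes. The letters TTCNNNGAA, bound by STAT factors, were found in 0 of the 10 against 8.09% of all genes. The motifs do not contain one another. A match or its lack describes these letters only.

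S100A7 and S100A7A are shown because the first fell and the second did not pass, while their promoters are nearly alike: 58 of these 60 bases are identical, and 241 of the 250 before the start.
S100A7, chr1:153460652-153460711, minus strand: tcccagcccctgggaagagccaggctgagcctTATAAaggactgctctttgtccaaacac
S100A7A, chr1:153416460-153416519, plus strand: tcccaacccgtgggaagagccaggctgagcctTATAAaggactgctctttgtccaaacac

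Of the 20 S100 genes measured, 16 lie on chromosome 1 in RefSeq's GRCh38.p14 gene order, 9 of them among the 10 genes described here, while S100P lies on chromosome 4. No coordinates are given for the probe sets, whose build is not stated. Between S100A9 and S100A8, which both fell, lies S100A12, with a difference smaller than 0.01 in size and a mean of 6.53 in the control. Between S100A7 and S100A4 lie S100A6, which rose, and S100A5, also below 0.01 in size. From S100A4 to S100A14, 5 neighbours in a row fell: S100A4, S100A3, S100A2, S100A16 and S100A14. The next ones, S100A13 and S100A1, did not pass, nor did S100A10 and S100A11 at the other end of the row.

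**Figure D3:**
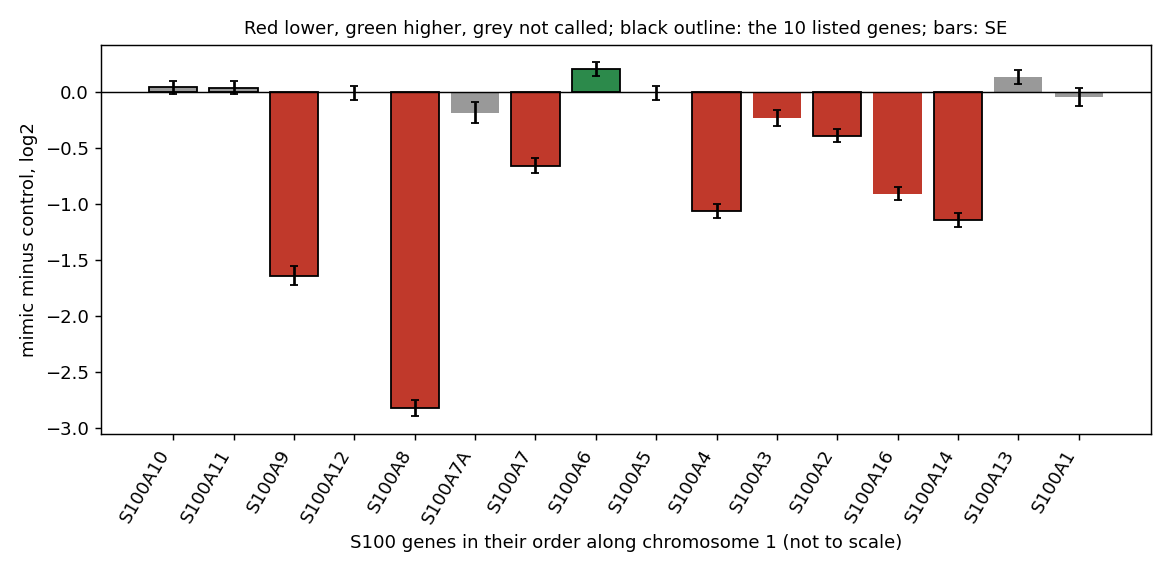
Difference between mimic and control (vertical axis, log2) for the 16 S100 genes of chromosome 1 in gene order, not to scale; bars are limma's SE and black outlines mark the 9 of the listed genes that lie there. Genes that fell stand beside genes near 0, as S100A8 and S100A9 beside S100A12.

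Among the 10 other S100 genes, 2 fell and 0 rose, against 16.3% and 14.1% of all genes. Their median difference was -0.0036. Unadjusted, 3 of the 10 had a p under 0.05 in limma in either direction, against 40.6% of all genes. S100A16, the neighbour of S100A14, read 14.02, 14.06 and 14.02 in the control and 13.15, 13.15 and 13.08 in the mimic. It fell 1.88-fold (limma adjusted p = 8.43e-07), with no overlap. S100A3 fell by 0.23 on the log2 scale (limma adjusted p = 0.0369), a call lost without mimic replicate 1, without mimic replicate 2 or without any 1 of the 3 control replicates. S100A1, S100A5, S100A12, S100B, S100G and S100Z differed by less than 0.05 in size. S100A13 had a difference of 0.14 ± 0.06 (SE; limma adjusted p = 0.14), which passed after quantile normalization again, with array weights, with eBayes trend and robust, and with the intensity trend removed. With its probe sets averaged the S100A13 difference was smaller than 0.01 in size.

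Among 18 genes of S100 partners and receptors, 3 fell and 2 rose (median -0.04), near the 16.3% and 14.1% of all genes. With probe sets averaged the falls were 5 and the rises 1, and with array weights the rises were 4. FABP5, a fatty acid carrier that binds S100A7, read 12.36, 12.54 and 12.41 in the control and 10.40, 10.55 and 10.38 in the mimic. It fell 3.98-fold (limma adjusted p = 1.18e-08). ANXA1, the annexin partner of S100A11, read 13.83, 13.87 and 13.84 in the control and 12.83, 12.96 and 12.86 in the mimic, 1.95-fold higher in the control (limma adjusted p = 8.16e-07). Its second probe set, at 6.84 in the control, had a difference of 0.08 and did not pass.

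MYH9, the myosin heavy chain bound by S100A4, fell by 0.25 on the log2 scale (limma adjusted p = 0.0143), a call lost without mimic replicate 2. AHNAK, a scaffold bound by S100A10 and annexin A2, rose by 0.35 ± 0.07 (SE; limma adjusted p = 0.00455). The other 4 AHNAK probe sets had differences from 0.04 to 1.99, and those at 0.04 and 0.06 did not pass. CD36, a receptor that takes up fatty acids and binds calprotectin, rose by 0.23 (limma adjusted p = 0.0295), a call lost under 11 of the 17 other settings, and its other 4 probe sets had differences from -0.07 to 0.33. CD36 averaged 6.63 in the control. The receptor genes AGER (-0.03 ± 0.09, SE; limma adjusted p = 0.858) and TLR4 (0.21 ± 0.09, SE; limma adjusted p = 0.119) did not pass. TLR4 passed with array weights, at 0.30, and was at -0.01 with its probe sets averaged. AGER and TLR4 averaged 7.55 and 6.77 in the control, below the array medians of 7.59 to 7.66, and no detection call was used.

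Cornified envelope genes and the fused S100 genes, which carry an S100 domain at the head of a long repeat protein, included changes in both directions. Of 16 measured, 5 rose and 2 fell, against 14.1% and 16.3% of all genes, with a median of 0.14. Without the 40% dimmest probe sets, which include those of RPTN and FLG, 3 rose and 3 fell. With probe sets averaged 4 fell, and SPRR4 (0.18) and TCHH (0.20) also passed as higher. RPTN, or repetin, one of the fused genes, read 6.08, 6.07 and 5.99 in the control and 7.81, 7.71 and 7.92 in the mimic, 3.41-fold higher (limma adjusted p = 1.97e-08). CRCT1 rose by 0.93 and LCE3D by 0.74, both genes of the cornified layer (limma adjusted p at most 5.04e-06 for the pair). SPRR3, an envelope protein, rose by 0.30 and FLG, the fused gene of filaggrin, by 0.27, and the FLG call was lost under 11 of the 17 other settings. The second SPRR3 probe set had a difference of -0.07 and did not pass, and with both averaged SPRR3 was at 0.11 and its call was lost. SPRR1B, a small proline-rich envelope protein, fell by 0.84 on the log2 scale (limma adjusted p = 2e-06), and IVL, or involucrin, fell by 0.27. Of the listed genes, 7 have no value here and were not analysed.

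Genes of antimicrobial defence and epithelial alarm included 6 falls and 1 rise among 13 measured, with a median of -0.08. Falls made up 16.3% and rises 14.1% of all genes. KRT16, a keratin of stressed skin, read 11.45, 11.56 and 11.54 in the control and 9.62, 9.68 and 9.60 in the mimic, 3.70-fold higher in the control (limma adjusted p = 6.15e-09). PI3, or elafin, an inhibitor of neutrophil elastase, fell by 1.19 on the log2 scale, and by 1.52 at its second probe set. DEFB1, a defensin, fell by 1.05. CCL20, a chemokine with antimicrobial activity, rose by 0.96 (limma adjusted p at most 4.38e-06 for these 3 genes).

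Other EF-hand proteins fell in 7 of 17 measured and rose in 2 (median -0.14), against 16.3% and 14.1% of all genes. CALB1, a calcium buffer, fell by 0.78, and by 0.44 at its second probe set (limma adjusted p = 0.000555 at the second). RCN1, a protein of the endoplasmic reticulum, fell by 0.75. CALML5, a calmodulin-like protein of skin, fell by 0.55, at a dim probe set averaging 6.78 in the control and 6.23 in the mimic. SRI, or sorcin, rose by 0.60 at 1 of its 2 probe sets and had a difference of 0.05 at the other, which did not pass. CAPNS1, the small subunit of calpain, rose by 0.50. At the brightest probe sets of these 5 genes the limma adjusted p was at most 0.000343.

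Among 11 measured transcription factors known to act on S100 promoters, 4 fell and 1 rose (median -0.15). The shares over all genes were 16.3% and 14.1%. JUNB, an AP-1 subunit, read 10.90, 11.08 and 10.94 in the control and 12.02, 11.94 and 11.89 in the mimic, 1.97-fold higher (limma adjusted p = 1.63e-06). STAT3 fell by 0.68 on the log2 scale at its brightest probe set. Of its 4 probe sets 3 fell, by 0.54 to 0.88, and the other, at 0.13, did not pass. FOSL1, another AP-1 subunit, fell by 0.50 and HIF1A, the oxygen-sensitive factor, by 0.48. The limma adjusted p was at most 0.000273 for these 3 genes. CEBPD fell by 0.29, and by 1.24 at its second probe set. CEBPB, a factor of S100A8 and S100A9 promoters, had a difference of 0.10 ± 0.06 (SE) and did not pass (limma adjusted p = 0.266), though it passed with eBayes trend and robust. With probe sets averaged, JUN (-0.20) and BRCA1 (-0.45) also passed as lower. BRCA1 had a difference of -0.06 at its brightest probe set and fell by 0.84 at its second. TP63 was not analysed here.

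**Figure D4:**
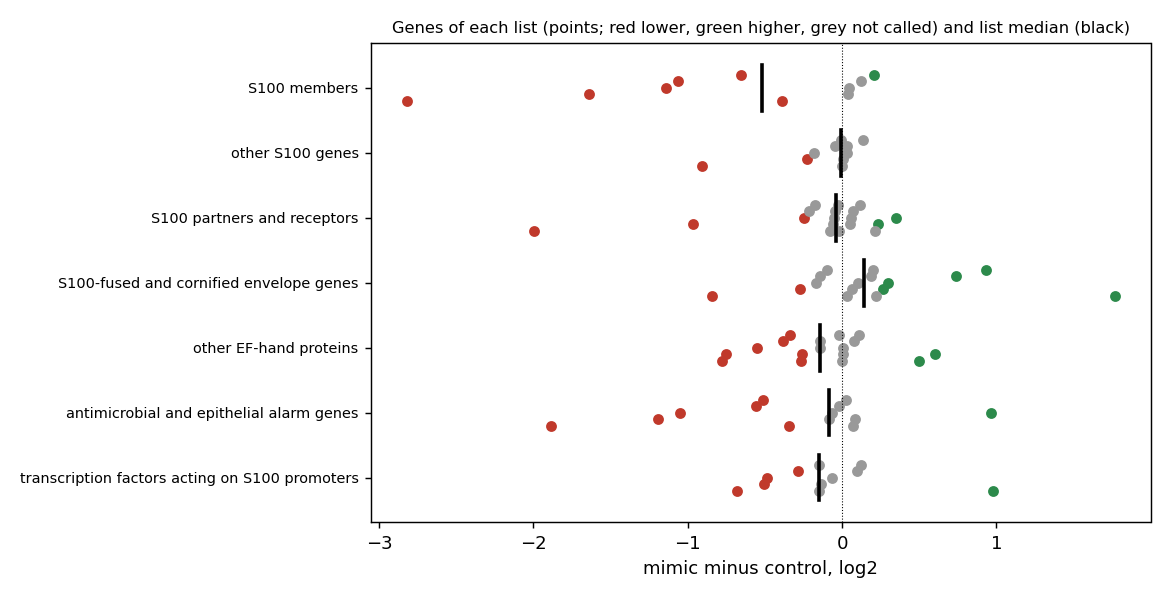
Difference between mimic and control (horizontal axis, log2) of each gene, by list; black ticks are list medians. The median of the 10 S100 genes is -0.52, and those of the other 6 lists shown lie from -0.15 to 0.14. The cell type marker lists are not shown. The median of the basal mammary markers was -1.23, and that of the general epithelial markers, -0.56, was close to that of the S100 genes. Myeloid and fibroblast markers had medians of 0.01 and 0.06.

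The labels name only the MCF10A line for both groups, and markers of other cell types were read in that line too. They are given because S100A8 and S100A9 are also made by myeloid cells and because epithelial genes moved in these arrays. Their counts stand beside 16.3% of all genes that fell and 14.1% that rose. Of 9 measured myeloid markers, 1 fell (CD14, by 1.15) and 1 rose (ITGAM, by 0.21, a call lost under 12 of the 17 other settings), with a median of 0.01. Their summed log2 values ran from 65.3 to 66.4 in the mimic and from 66.7 to 67.3 in the control. Apart from CD14, no myeloid marker had all mimic arrays below the control arrays, so the lower sums follow CD14. PTPRC, the marker of all white blood cells, averaged 7.07 in the control, below the array medians. CD14 averaged 9.96 and CSF3R 8.20 in the control, above those medians. The other myeloid markers averaged from 5.90 (TYROBP) to 7.49 (MPO), below them. All 5 general epithelial markers fell (median -0.56), and their summed log2 values ran from 54.0 to 54.6 in the mimic and from 58.2 to 58.6 in the control. EPCAM fell by 1.54 and KRT18 fell by 0.996 on the log2 scale. Of 5 measured basal mammary markers, 3 fell and 1 rose (median -1.23), with sums from 58.7 to 59.2 in the mimic and from 63.5 to 63.8 in the control; KRT14 fell by 2.23 and KRT5 fell by 1.73. Of 5 fibroblast markers, 1 rose (DCN, by 1.66) and 1 fell (LUM, by 1.06, at a dim probe set averaging 5.15 in the control, and at -0.03 at its second one, which did not pass), with a median of 0.06 and sums from 43.3 to 44.0 in the mimic and from 42.7 to 43.0 in the control. The part of these markers in the S100 differences was not tested. A log2 array value has no true zero, so no marker can be said to be at 0.

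The genes whose values over the 6 arrays, each centred on its own mean, lay closest to those of S100A8 were FGFBP1, CYP1B1 and PBK, at root mean square distances of 0.057, 0.079 and 0.080 on the log2 scale. Their differences were -2.92, -2.73 and -2.94. FGFBP1 encodes a carrier of fibroblast growth factors, CYP1B1 a cytochrome P450 and PBK a mitotic kinase. Closest to S100A6 were SEPTIN4, LOC780529 and OPCML, at distances from 0.013 to 0.019, and of these only SEPTIN4 passed (difference 0.23, limma adjusted p = 0.0160). Such distances over 2 conditions say little more than that the differences between groups were of like size.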

How the data were processed

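RNA of 3 mimic and 3 control cultures was measured on 1 array each, per the labels. The deposited values are log2 intensities per probe set, which the authors normalized with RMA, per the submitters' processing notes, and their range fits a log2 scale. RMA makes array distributions alike and compresses differences between dim values. No version or setting of it is named in the labels.

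The 62 control probe sets were left out of 54675. Symbols came from the platform annotation. The 41091 probe sets with 1 symbol named 19775 genes, each read at its brightest probe set. Values were fitted with limma 3.58.1 (lmFit, eBayes without trend) in R 4.3.3 over all 54613 probe sets, with Benjamini-Hochberg adjustment over all of them and a threshold of 0.05, which 24.8% of probe sets passed. The fit was tested on simulated data. Sequences and tables were handled with Python 3.11.15 and pandas 2.3.3, and plots with matplotlib 3.10.9. Alternatives were other normalizations, filters, weights, probe set rules, thresholds, a replicate block, removal of a loess trend (span 0.3) and leaving out each array.

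The members and gene lists were chosen with earlier results of these data known. Named were all members, up to 4 called genes of each list with the largest change, and ANXA1, ANXA2, AGER, TLR4, CEBPB and TP63. Also named were the 3 genes nearest in pattern to the members with the largest rise and fall. S100 relatives and cell type markers were named beside these to complete small counts or show limits, after their values were seen. So were CD36, CEBPD, SPRR3, SPRR4, TCHH, FLG, IVL, CAPNS1, CAPN2, SLPI, JUN and BRCA1. The partner pairs were compared by exact permutation over arrays.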

Additional observations from a re-analysis of the deposited data

How the results depend on the processing

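Of 170 values of the 10 S100 genes under 17 alternatives, 161 kept their direction and their side of the threshold, and none reversed. S100A6 lost its call under 7 of 17 and S100A2 under 1, the 1.5-fold minimum, by construction; S100A10 gained one with its probe sets averaged. The count of 6 falls was therefore 5 with that minimum and 6 otherwise. The count of 1 rise was 0 with arrays centred on their medians, with the replicate block, at an adjusted p under 0.01 and with the 1.5-fold minimum, 2 with probe sets averaged, and from 0 to 1 when 1 array was left out. Deviations of same-numbered arrays from their group means had r from -0.11 to 0.08, and those of other pairs from -0.19 to 0.12. With 3 arrays per group this cannot tell whether same-numbered cultures were handled together. The replicate block left 6 falls. The members' median was -0.47 after quantile normalization again and -0.52 in the main setting; the cause was not tested. S100A8 ranged from -2.88 to -1.56, the latter without s_at probe sets. With the 1.5-fold minimum 1723 genes passed (640 higher, 1083 lower), as did 3590 probe sets and 24 of the 109 genes of the other lists, 48 of which passed without it; at an adjusted p under 0.01, 1815 genes were higher. No detection calls were used, so whether dim values lie above background is not known.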
